A study of Homo sapiens with 4 samples.

Results

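Genes whose transcripts were more abundant in both CBX7-overexpressing libraries of T24 cells than in both control libraries are described here, apart from CBX7 itself and 12 others left out by name (JAG2, EEF1A2, DUSP9, IGF2, SEMA6B, LLGL2, ARHGEF16, CRABP2, CPT1A, MFAP2, EGFL7 and CYGB). The members were chosen by their measured levels. Each count was divided by the summed count of its library and scaled by a constant to give CPM, a level relative to depth, and a gene was kept if it had at least 100 counts over the 4 libraries and if its smaller CBX7 level was at least 1.6 times its larger control level. Of 60623 genes in the table, 13209 had at least 100 counts, 140 of these (1.06%) passed the rule, and 127 remained as members. The same separation in the other direction was met by 26 genes (0.197%). This balance depended on the libraries. Without CBX7 library 2, 548 genes were lower by it and 301, apart from those left out by name, were higher.

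T24 is a cell line derived from a human bladder carcinoma, grown here in RPMI medium with 10% fetal calf serum. Total RNA of 2 control and 2 CBX7 libraries was reverse transcribed with random primers and sequenced on an Illumina HiSeq instrument. According to the methods of the study, the CBX7 coding sequence was carried by a pCDH-3xFLAG plasmid. What the control cells received, how long CBX7 was expressed and whether the replicates were separate cultures are not given in the sources used here, so the spread between libraries may be technical. The expected counts summed to 23626206 and 20800910 in the control libraries and to 25135488 and 21961166 in the CBX7 libraries, at which 3 counts are worth 0.119 to 0.144 CPM. CBX7 was at 11.1 and 9.77 CPM in the controls and at 1705 and 1623 CPM with CBX7, so all 4 labels matched the introduced gene. Of the urothelial markers, KRT7, PPARG, FOXA1 and ELF3 reached 100 counts and were present in every library. ELF3, an ETS factor of epithelium, was lower with CBX7, at 9.23 and 9.07 against 6.72 and 6.88 CPM, and the groups of the other 3 overlapped. KRT5 and KRT13 had no count in any library and the uroplakins, which define the superficial urothelium, had at most 6 counts in a library. Of 20 markers of fibroblasts, endothelium and leukocytes, 2 reached 100 counts over the 4 libraries and none was a member. These were COL1A1, at 2.54 and 2.6 CPM in the controls and 3.46 and 4.83 CPM with CBX7, and CD68, at 13.1 and 10.5 against 8.17 and 7.04 CPM, while CD3D, MS4A1 and TEK had no count in any library.

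CBX7 is a subunit of Polycomb repressive complex 1. Its chromodomain binds histone H3 trimethylated at lysine 27, a mark laid down by Polycomb repressive complex 2, and the complex ubiquitinates histone H2A. Polycomb complexes are known for keeping developmental regulators, morphogens and their receptors silent, mostly at promoters rich in the dinucleotide CpG. The genes described here were higher, not lower, in cells that carried more CBX7, and no chromatin measurement was analysed here.

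CBX7 library 1 stood apart from the rest in a trend with gene length. The median log2 ratio of CBX7 library 1 to control library 1 was -0.31 in the longest length tertile of the counted genes and 0.18 in the shortest. From the shortest to the longest tertile the ratio of CBX7 library 1 fell by 0.49 against control library 1, by 0.65 against control library 2 and by 0.67 against CBX7 library 2. Among the other 3 libraries the same differences were -0.16 for control library 1 over control library 2, 0.18 for CBX7 library 2 over control library 1 and 0.01 for CBX7 library 2 over control library 2. Members were above 1.6 in both CBX7 libraries by choice, and leaving out a library cannot lower their separation. Without CBX7 library 1, 155 genes passed the rule, among them 102 of the 127 members, and the other members were left with fewer than 100 counts. Without CBX7 library 2, 301 genes passed, among them 110 of the members. The same separation in the other direction was met by 52 genes without CBX7 library 1 and by 548 without CBX7 library 2.

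Promoters of 4 members are shown first, as they run from few to many CpG within the 3 to 58 held by the 90 members with a promoter in RefSeq. They were picked after their values had been seen, and run from 250 bases before to 50 bases after the transcription start in RefSeq (assembly GRCh38.p14), in the direction of transcription, with every CpG in capitals. NRARP lies at chr9:137302222-137302521 (minus strand) with 46 CpG, GATA2 at chr3:128493152-128493451 (minus strand) with 29, LYPD3 at chr19:43465559-43465858 (minus strand) with 17, and IL32 at chr16:3065153-3065452 (plus strand) with 7.
NRARP: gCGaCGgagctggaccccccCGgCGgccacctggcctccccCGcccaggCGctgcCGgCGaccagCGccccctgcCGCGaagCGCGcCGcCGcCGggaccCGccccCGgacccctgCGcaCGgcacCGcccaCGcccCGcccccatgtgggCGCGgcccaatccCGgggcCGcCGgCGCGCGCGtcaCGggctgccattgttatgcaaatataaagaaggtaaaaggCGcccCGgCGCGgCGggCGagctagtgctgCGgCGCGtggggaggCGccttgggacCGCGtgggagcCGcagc
GATA2: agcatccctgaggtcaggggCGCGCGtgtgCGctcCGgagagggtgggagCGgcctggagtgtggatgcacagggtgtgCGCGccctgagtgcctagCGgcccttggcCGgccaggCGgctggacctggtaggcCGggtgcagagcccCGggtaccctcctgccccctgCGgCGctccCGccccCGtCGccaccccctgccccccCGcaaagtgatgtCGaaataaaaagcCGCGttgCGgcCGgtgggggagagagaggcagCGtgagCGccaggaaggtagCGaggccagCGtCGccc
LYPD3: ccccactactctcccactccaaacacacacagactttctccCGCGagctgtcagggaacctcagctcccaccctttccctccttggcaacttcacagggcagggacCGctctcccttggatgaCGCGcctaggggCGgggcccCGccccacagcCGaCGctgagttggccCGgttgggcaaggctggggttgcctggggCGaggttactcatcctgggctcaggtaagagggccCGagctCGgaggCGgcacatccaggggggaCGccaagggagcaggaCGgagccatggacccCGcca
IL32: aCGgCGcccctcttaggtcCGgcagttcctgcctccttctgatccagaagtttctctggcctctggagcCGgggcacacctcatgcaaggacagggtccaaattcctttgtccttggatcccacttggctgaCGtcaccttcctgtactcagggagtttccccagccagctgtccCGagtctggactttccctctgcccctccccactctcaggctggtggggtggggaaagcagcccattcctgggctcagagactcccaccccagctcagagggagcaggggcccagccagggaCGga

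The ratio of observed to expected CpG was 1.00 in the NRARP window, 0.744 in GATA2, 0.507 in LYPD3 and 0.244 in IL32. The GC content of these windows was 78.3%, 72.3%, 67% and 62.3%. A GC box (GGGCGG on either strand) was found in the windows of NRARP, GATA2 and LYPD3 but not of IL32, and is held by 71.3% of the promoter windows of counted genes. A CCAAT box (CCAAT on either strand) and a TATA box (TATAAA on either strand) were found in the NRARP window alone of the 4, and are held by 37.1% and 5.18% of the windows. A match is a description of these letters and does not mark a bound site. A promoter window was at hand for 90 of the 127 members (70.9%), under the 80% required, so the comparison of member promoters with other promoters is void and none is given.

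Most members were transcripts of low abundance. The median member was at 2.39 CPM in the controls and 5.67 CPM with CBX7, while the medians over all 13209 counted genes were 28.9 and 28.7 CPM. On the TPM scale, which divides by transcript length, the members had medians of 1.57 in control and 3.44 in CBX7-overexpressing cells, and all counted genes had 15.8 and 14.7. Control levels were under 1 CPM in both libraries for 22 members and over 10 CPM in both for 14. Mean levels in CBX7-overexpressing cells ran from 0.48 TPM for MAPK8IP2, a scaffold of the JNK kinase pathway, to 365.1 TPM for MDK, with 77 members under 5 TPM and 7 at 20 TPM or more. In these bulk samples a change in the number of cells that transcribe a gene and a change in RNA per cell cannot be told apart.

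**Figure D1:**
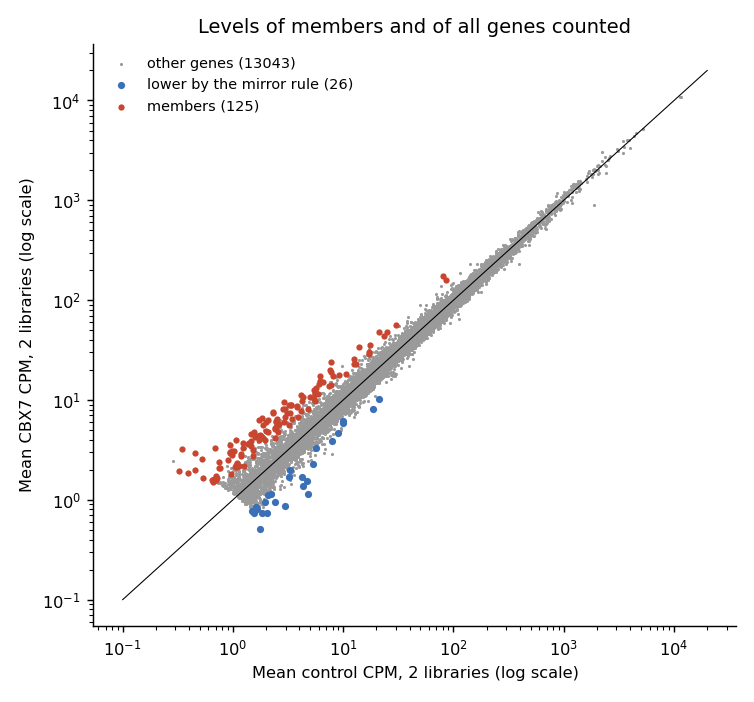
Mean CPM of the 2 CBX7 libraries (vertical axis, log scale) against mean CPM of the 2 control libraries (horizontal axis, log scale) for each gene with at least 100 counts; red points are members, blue points the genes lower by the same separation, grey points other genes, and the line marks equal levels. The 125 members drawn lie above the line mostly at low levels, against 26 genes below it; 2 members with no control count and the genes left out by name are not drawn.

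The separation of the groups, that is the smaller CBX7 level over the larger control level, had a median of 1.94. It was between 1.6 and 2 for 71 members, at least 2 for 56 and at least 3 for 11, including 2 with no control count. When the counts of the 2 libraries that set the separation were given 95% exact intervals, which cover counting error only, the lower bound was above 1 for 120 members and above 1.6 for 42. Just inside the threshold stood PHLDB3, GAMT and MAPK8IP2, each at 1.61, and just outside it CORO1A at 1.598, SP6 at 1.595 and SLC45A1 at 1.59.

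In edgeR's quasi-likelihood fit over 14862 genes, 126 of the 127 members had enough counts to be fitted, the exception being AC009119.1. Their log2 fold changes had a median of 1.27 and ran from 0.79 to 10.04 with a median standard error of 0.26, and the median over all fitted genes was 0.00. The value of 10.04 is that of AC008012.1, which had no count in either control, so it is not a measured fold. As the members were chosen on this same contrast, these values describe the choice. None of the 126 members had an adjusted p under 0.05 (3 genes in all, 0.0202% of those tested, were called higher), all 126 had an unadjusted p under 0.05 (3.42% of genes did, counting those higher), and DESeq2's Wald test called 45 of them (0.417%). With 2 libraries against 2, an exact permutation test cannot give a two-sided p under 0.333. Other fits called 106 of 127 members when low counts were kept (0.831%), 0 when every library had to hold at least 10 counts (0.0215%), 0 with length and GC offsets (0.0336%), 109 with the replicate number as a block (1.82%) and 101 with the block and the offsets (1.96%). Fits that left out 1 library called 21 without control 1 (0.338%), 13 without control 2 (0.253%), 95 without CBX7 1 (2.03%) and 122 without CBX7 2 (18.3%). Nothing is read from these counts.

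Among the members, the widest separations belonged to transcripts close to absent in control cells. C1QL4, a secreted protein of the C1q and TNF family, was at 0.423 and 0.481 CPM in the controls and 3.26 and 2.69 CPM with CBX7, with a log2 fold change of 2.74 (standard error 0.34). LCN10, a lipocalin of the family that binds small lipophilic molecules, was at 0.593 and 0.103 CPM in the controls and 3.26 and 3.15 CPM with CBX7. Its log2 fold change was 3.18 (standard error 0.60), although control library 2 held fewer than 3 counts of it. PLPP2, a phosphatase that dephosphorylates lipid mediators such as lysophosphatidic acid, was at 0.423 and 0.625 CPM in the controls and 2.98 and 2.19 CPM with CBX7, a log2 fold change of 2.34 (standard error 0.39). In these 3 genes the smaller CBX7 level was 5.59, 5.31 and 3.5 times the larger control level.

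**Figure D2:**
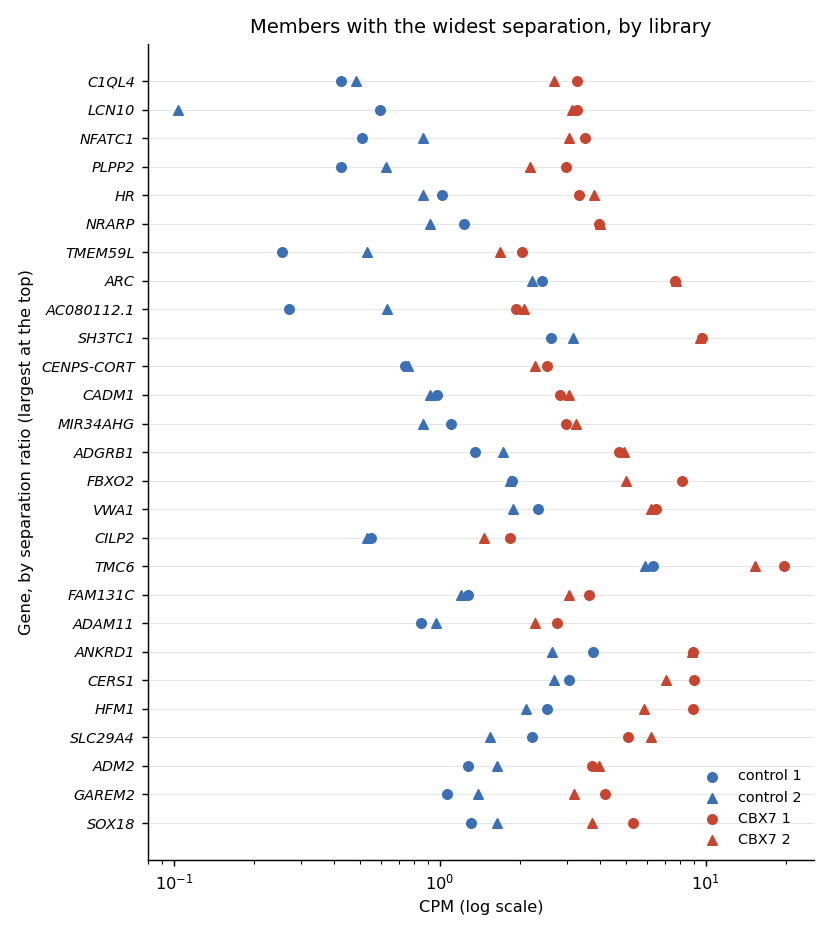
CPM (log scale) of each library for 27 of the 30 members with the widest separation, those with counts in control library 1 and without 1 gene not reported here, ordered by separation, with control libraries in blue, CBX7 libraries in red, circles for replicate 1 and triangles for replicate 2. The groups do not overlap for any gene, as the rule requires, and from C1QL4 at 5.59 the separation falls to 2.28 for SOX18; control library 2 of LCN10, at 0.103 CPM, is the lowest point.

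Of 11 ligands and other secreted signals, the members ran from 0.452 to 80.8 CPM in mean control level. MDK, or midkine, a heparin-binding growth factor, was the most abundant member in TPM, at 85.9 and 75.7 CPM in the controls and 207 and 139 CPM with CBX7. Its log2 fold change was 1.14 (standard error 0.24), and the CBX7 libraries differed from each other more than the control libraries did. INHBB, the beta B subunit of activins and inhibins, was at 26.5 and 23.3 CPM in the controls and 48.6 and 47.7 CPM with CBX7, a log2 fold change of 0.98 (standard error 0.14). Both CBX7 libraries were alike for this gene.

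Among the Wnt ligands, WNT7B and WNT10B were members. WNT7B was at 31.4 and 28.6 CPM in the controls and 53.2 and 60.3 CPM with CBX7, a log2 fold change of 0.95 (standard error 0.14), and WNT10B was at 1.31 and 0.721 CPM in the controls and 3.5 and 2.6 CPM with CBX7, a log2 fold change of 1.61 (standard error 0.39). Per length, in TPM, WNT10B was the rarer of the pair. Once the length and GC trend of every library had been removed, the separation of WNT7B was 1.44, under the threshold of 1.6, while that of WNT10B was 2.05. ADM2, a peptide hormone of the calcitonin family, was at 1.27 and 1.63 CPM in the controls and 3.74 and 3.96 CPM with CBX7, a log2 fold change of 1.44 (standard error 0.26). The other ligands included PGF (placental growth factor), NPB (neuropeptide B), SEMA3F (a semaphorin) and IL32, with separations from 1.63 for SEMA3F to 1.93 for PGF. IL32, whose CpG-poor promoter is printed above, was at 1.27 and 1.11 CPM in the controls and 3.3 and 2.19 CPM with CBX7. After the length and GC correction 8 of the 11 still passed the rule.

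The 16 receptors and modulators of signalling were mostly of low level, with a median of 2.26 TPM in CBX7-overexpressing cells. NRARP, an ankyrin-repeat protein induced by Notch signalling that feeds back on it, was at 1.23 and 0.913 CPM in the controls and 3.98 and 4.01 CPM with CBX7, a log2 fold change of 1.92 (standard error 0.28). Both CBX7 libraries stood at nearly the same level, 3.24 times the higher control library. LFNG, a Fringe glycosyltransferase that modifies Notch receptors, was at 0.762 and 0.769 against 2.82 and 1.32 CPM. Here CBX7 library 1 was well above CBX7 library 2, and the separation was 1.72. ADGRB1, an adhesion G protein-coupled receptor, was at 1.35 and 1.73 CPM in the controls and 4.69 and 4.92 CPM with CBX7, a log2 fold change of 1.67 (standard error 0.25).

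GAREM2, an adaptor related to one that links growth factor receptors to ERK signalling, was at 1.06 and 1.39 CPM in the controls and 4.18 and 3.19 CPM with CBX7, with a log2 fold change of 1.63 (standard error 0.32). Further receptors in the group included ADORA1 (adenosine) at 6.73 and 6.49 against 16.9 and 13.4 CPM, F2RL1 (protease-activated) at 0.677 and 0.721 against 1.87 and 1.59 CPM, NTSR1 (neurotensin) at 2.24 and 3.7 against 6.37 and 9.88 CPM and LPAR2 (lysophosphatidic acid) at 5.59 and 5.48 against 10.3 and 9.15 CPM. FGFR4, a receptor tyrosine kinase for fibroblast growth factors, was at 5.71 and 5.38 against 12.5 and 10.6 CPM. In TPM, ADORA1 was the most abundant of these and F2RL1 the rarest. After the length and GC correction 10 of the 16 passed the rule, the lowest share among the 11 function groups, with NTSR1 at 1.54 and LPAR2 at 1.43 among those that did not.

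The 12 members that act in transcription or chromatin had separations from 1.71 for GATA2 to 3.53 for NFATC1. NFATC1, a transcription factor that enters the nucleus when calcineurin removes its phosphates, was at 0.508 and 0.865 CPM in the controls and 3.5 and 3.05 CPM with CBX7, a log2 fold change of 2.29 (standard error 0.36). HR, the hairless corepressor, which carries a JmjC domain, was at 1.02 and 0.865 CPM in the controls and 3.34 and 3.78 CPM with CBX7, a log2 fold change of 1.94 (standard error 0.27). SOX18, a SOX-family factor known from endothelium, was at 1.31 and 1.63 CPM in the controls and 5.33 and 3.73 CPM with CBX7, a log2 fold change of 1.66 (standard error 0.32). For all 3 the control level was under 2 CPM.

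GATA2, a zinc-finger factor of blood and endothelial development, was among the abundant members of this group. It was at 17.5 and 16.8 CPM in the controls and 29.9 and 31.1 CPM with CBX7, with a log2 fold change of 0.86 (standard error 0.13) and libraries of each group close together. Its antisense neighbour GATA2-AS1, which overlaps it on the opposite strand, was at 17.4 and 16.7 CPM in the controls and 28.2 and 29.6 CPM with CBX7, nearly the same levels. The counting is not stated to have used strand, so reads of the pair cannot be told apart. After the length and GC correction the separations were 1.44 and 1.38, and in TPM they were 1.24 and 1.53, all under the threshold with groups that did not overlap. SMARCD3, a subunit of the SWI/SNF chromatin remodelling complex, was at 7.94 and 7.6 CPM in the controls and 22.5 and 15.4 CPM with CBX7, a log2 fold change of 1.32 (standard error 0.24), and its CBX7 library 1 was the higher. ANKRD1, an ankyrin-repeat cofactor known as a target of YAP, was at 3.77 and 2.64 CPM in the controls and 8.95 and 8.88 CPM with CBX7, with a log2 fold change of 1.5 (standard error 0.23) and a transcript GC content of 43.3%, below that of most members. The group also held TCF7 (a factor of Wnt-regulated transcription), MYRF, AHRR (the repressor of the aryl hydrocarbon receptor), PWWP2B, TCEA3 and SRRM3, and 11 of the 12 passed after the correction.

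Cell surface adhesion and epithelial genes gave 11 members, all of which passed the rule again after the length and GC correction. MCAM, the adhesion molecule CD146, was at 85.9 and 85.4 CPM in the controls and 151 and 166 CPM with CBX7, a log2 fold change of 0.92 (standard error 0.13). BCAM, a laminin receptor of the same immunoglobulin superfamily, was at 17.5 and 17.7 CPM in the controls and 36.8 and 33.6 CPM with CBX7, a log2 fold change of 1.03 (standard error 0.15). In TPM these were the most abundant members of the group. CADM1, a further immunoglobulin-type adhesion molecule, was at 0.973 and 0.913 CPM in the controls and 2.82 and 3.05 CPM with CBX7, a log2 fold change of 1.66 (standard error 0.27), from under 1 CPM in control cells.

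KRT19, a keratin of simple epithelia, was at 6.6 and 5.77 CPM in the controls and 17.7 and 13 CPM with CBX7, and SPINT1, a membrane inhibitor of serine proteases such as matriptase, was at 9.27 and 6.92 CPM in the controls and 18.1 and 16.6 CPM with CBX7. Their log2 fold changes were 1.35 (standard error 0.23) and 1.13 (standard error 0.20). LSR, a component of tricellular junctions, was at 4.61 and 3.99 against 11.5 and 9.97 CPM, and LYPD3 was at 1.23 and 1.15 against 3.38 and 2.37 CPM. ITGB4, the integrin subunit of hemidesmosomes, was separated by 2.17 times in CPM (3.6 and 3.08 against 7.8 and 10.2 CPM). In TPM its groups overlapped, at 3.01 and 0.80 TPM in the controls and 2.41 and 2.72 TPM with CBX7. GP1BB, a platelet glycoprotein gene that overlaps its neighbour SEPTIN5 on the same strand, was at 0.643 and 0 against 2.64 and 1.28 CPM, so that its fold depends on a control library with no count.

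Among 9 genes of the matrix, proteases and their inhibitors, all of which passed again after the correction, VWA1, a matrix protein with a von Willebrand factor A domain, was at 2.33 and 1.87 CPM in the controls and 6.48 and 6.24 CPM with CBX7. CILP2, related to a cartilage matrix protein, was at 0.55 and 0.529 CPM in the controls and 1.83 and 1.46 CPM with CBX7, and ADAM11, a member of the ADAM family known to lack protease activity, was at 0.847 and 0.961 CPM in the controls and 2.75 and 2.28 CPM with CBX7. Their log2 fold changes were 1.62 (standard error 0.23), 1.63 (standard error 0.36) and 1.51 (standard error 0.31), and all 3 transcripts were over 4000 bases long. TIMP3, an inhibitor of metalloproteases, was at 5.46 and 5.34 against 11.3 and 13.8 CPM, MMP11, a metalloprotease, at 1.35 and 1.83 against 4.77 and 3.73 CPM, and CTSH, the lysosomal protease cathepsin H, at 4.66 and 3.65 against 12.9 and 9.56 CPM.

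The largest function group was that of small GTPases and the cytoskeleton, with 18 members and separations of 1.61 to 2.21. RAC3, a small GTPase that acts on actin, was at 13.8 and 14 CPM in the controls and 40.2 and 27.2 CPM with CBX7, a log2 fold change of 1.31 (standard error 0.24). CRIP1, a short LIM-domain protein, was at 8.38 and 7.27 CPM in the controls and 30.8 and 17.4 CPM with CBX7, a log2 fold change of 1.66 (standard error 0.32). In both genes CBX7 library 1 was the higher of its group. TUBB4A, a beta-tubulin of neural tissue, was at 1.3 and 1.44 CPM in the controls and 2.94 and 4.24 CPM with CBX7, a log2 fold change of 1.4 (standard error 0.29), and there CBX7 library 2 was the higher. The remaining members included the GTPases RHOV and RASL10B, the exchange factor RAPGEF3, the GTPase-activating proteins ADAP1 and ADAP2 for ARF, the actin regulator CARMIL2 and the filament-forming SEPTIN5, with 15 of the 18 passing after the correction.

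Of 11 members with roles in membrane traffic or as scaffolds, SLC9A3R2 was the most abundant in TPM. This PDZ scaffold, which tethers membrane transporters, was at 21 and 21.6 CPM in the controls and 57.1 and 39.8 CPM with CBX7, a log2 fold change of 1.22 (standard error 0.22). ARC, a gene of neuronal activity whose protein forms capsid-like shells, was at 2.41 and 2.21 CPM in the controls and 7.64 and 7.7 CPM with CBX7, a log2 fold change of 1.76 (standard error 0.20). SH3TC1, a protein with SH3 and tetratricopeptide domains, was at 2.62 and 3.17 CPM in the controls and 9.63 and 9.52 CPM with CBX7, a log2 fold change of 1.76 (standard error 0.20). The 2 CBX7 libraries were nearly equal for both genes.

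ANXA8, an annexin that binds membranes in the presence of calcium, was at 24.4 and 22.1 CPM in the controls and 45.5 and 42.4 CPM with CBX7, a log2 fold change of 0.95 (standard error 0.15). Its near-identical paralog ANXA8L1, at 8.23 and 7.18 against 14.3 and 13.9 CPM, is also a member, and as their counts were not whole, how reads were divided between the pair is uncertain. MLPH, an effector of the GTPase Rab27a in organelle transport, was at 8.63 and 9.57 CPM in the controls and 19.7 and 15.9 CPM with CBX7, a log2 fold change of 1.01 (standard error 0.19).

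Lipid and glycan enzymes and transporters gave 8 members. Beside PLPP2, CERS1, a ceramide synthase, was at 3.05 and 2.69 CPM in the controls and 9.03 and 7.1 CPM with CBX7, a log2 fold change of 1.52 (standard error 0.24). SMPDL3B (a sphingomyelinase-like phosphodiesterase), SPNS2 (a transporter of sphingosine-1-phosphate), ST3GAL5 (the synthase of ganglioside GM3), GBGT1, B3GNT4 and CPT1B (the muscle form of the mitochondrial carnitine palmitoyltransferase) completed the group. These 6 had separations from 1.65 for SPNS2 to 1.98 for GBGT1.

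Other genes of metabolism, transport and protein handling made up 14 members. SLC29A4, a transporter of monoamines, was at 2.22 and 1.54 CPM in the controls and 5.09 and 6.24 CPM with CBX7, a log2 fold change of 1.62 (standard error 0.27). TMC6, a transmembrane channel-like protein, was at 6.31 and 5.91 CPM in the controls and 19.7 and 15.3 CPM with CBX7, a log2 fold change of 1.55 (standard error 0.21). FBXO2, an F-box protein that targets glycoproteins for ubiquitination, was at 1.86 and 1.83 CPM in the controls and 8.16 and 5.01 CPM with CBX7, a log2 fold change of 1.87 (standard error 0.33). For FBXO2 and TMC6 the library CBX7 1 was the higher, and for SLC29A4 CBX7 2. IFI30, a lysosomal thiol reductase induced by interferon gamma, was at 5.13 and 4.88 CPM in the controls and 13 and 8.5 CPM with CBX7, a log2 fold change of 1.14 (standard error 0.27). ASS1, the argininosuccinate synthase of the urea cycle, was at 5.71 and 5.58 against 12.9 and 10.7 CPM, and GAMT, which makes creatine, was at 1.19 and 0.769 against 3.74 and 1.91 CPM, the latter with a wide gap between CBX7 libraries.

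**Figure D3:**
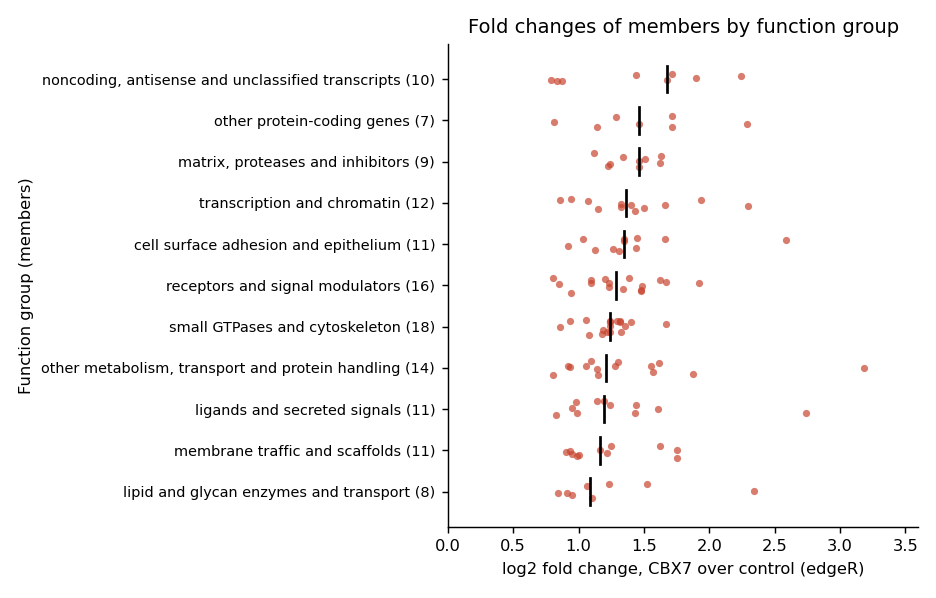
edgeR log2 fold change of CBX7-overexpressing over control cells (horizontal axis) for each member, in 11 function groups assigned after the members were known; points are genes, spread vertically at random within a group, and black bars are group medians over the fitted members. Medians lie between 1.08 for lipid and glycan genes and 1.68 for noncoding and unclassified transcripts. AC008012.1, fitted at 10.04 with no control count, lies beyond the axis and AC009119.1 was not fitted.

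Noncoding, antisense and otherwise unnamed transcripts contributed 10 members. The imprinted noncoding RNA H19, expressed in embryonic tissues and repressed in most adult ones, was at 2.24 and 1.2 CPM in the controls and 7.52 and 5.1 CPM with CBX7, a log2 fold change of 1.9 (standard error 0.38). Control library 1 was well above control library 2 for this gene, though still under both CBX7 libraries. MIR34AHG, the host transcript of the p53-induced microRNA miR-34a, was at 1.1 and 0.865 CPM in the controls and 2.99 and 3.23 CPM with CBX7, a log2 fold change of 1.68 (standard error 0.28). AC080112.1, annotated as antisense, was at 0.27 and 0.632 CPM in the controls and 1.93 and 2.07 CPM with CBX7, a log2 fold change of 2.24 (standard error 0.46).

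In 2 members neither control library had a count. AC008012.1 (ENSG00000285901), on chromosome 12 of GRCh38 from 4273762 to 4405490, had expected counts of 164.12 and 105.79 in the CBX7 libraries and 0 in both controls, at least 33.4-fold above the floor of 3 counts in a control library. Its span takes in TIGAR, which was at a log2 fold change of -0.07. AC009119.1, annotated as antisense on chromosome 16, had 190.03 expected counts in CBX7 library 1, 3.33 in CBX7 library 2 and 0 in both controls, so that it met the rule through a level near the floor and no fold is given. The counts of both were not whole.

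Of the 7 protein-coding members with no group, TMEM59L, a membrane protein known from brain, was at 0.254 and 0.529 CPM in the controls and 2.03 and 1.68 CPM with CBX7, a log2 fold change of 2.29 (standard error 0.45). FAM131C, of unknown function, was at 1.27 and 1.2 CPM in the controls and 3.62 and 3.05 CPM with CBX7, a log2 fold change of 1.46 (standard error 0.28). CENPS-CORT, a readthrough of the kinetochore gene CENPS into CORT, was at 0.739 and 0.759 CPM in the controls and 2.52 and 2.27 CPM with CBX7, a log2 fold change of 1.71 (standard error 0.30), with counts that were not whole. CENPS itself, at a log2 fold change of 0.19, was no member. HFM1, a helicase of meiotic recombination, was at 2.52 and 2.11 CPM in the controls and 8.95 and 5.84 CPM with CBX7, a log2 fold change of 1.72 (standard error 0.31). In TPM it was at 29.2 and 24 TPM in the controls and 80.9 and 67.9 TPM with CBX7, high for its CPM and its listed length of 4899 bases, and its counts were not whole. RADX, a protein that acts at replication forks, was at 0.72 and 0.625 against 1.51 and 1.73 CPM, but in TPM it was at 0.94 and 0.83 TPM in the controls and 0.47 and 0.88 TPM with CBX7, where the groups overlapped and the mean was lower with CBX7. Of the 127 members, 88 also passed 1.6 in TPM and 125 had groups that did not overlap there, the exceptions being ITGB4 and RADX.

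The members shared a feature that the rule did not use, in that their transcripts were rich in G and C. The median GC content of the longest annotated transcript was 61.1% over 126 members (AHRR had no record in GENCODE release 29) and 48.0% over all counted genes. Of the 126, 106 lay in the highest GC tertile (53.3% to 74.5%), 16 in the middle and 4 in the lowest (27.8% to 43.7%). The share of genes that passed the rule, including those left out by name, was 2.70% in the highest tertile, 0.388% in the middle and 0.0914% in the lowest. The genes lower by the same separation showed no such order, with 0.137%, 0.228% and 0.206%.

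The libraries also differed in GC over all counted genes. The median log2 ratio of CBX7 library 1 to control library 1 was -0.22 in the lowest GC tertile, -0.10 in the middle and 0.12 in the highest, a trend in the same direction as the GC content of the members. Between CBX7 library 2 and control library 2 it was 0.00, -0.00 and 0.02. With replicate 2 of each group alone the rule was passed by 3.84% in the highest tertile, 0.881% in the middle and 0.439% in the lowest, and the mirrored rule by 0.658%, 0.806% and 0.439%. Among genes with fewer than 1000 counts the shares were 6.90%, 1.24% and 0.348%. Over all counted genes, the shares of 2.70%, 0.388% and 0.0914% became 2.28%, 0.525% and 0.0914% after the length and GC correction. After it, 105 of the 127 members still passed, all 127 kept groups that did not overlap, and the median separation of members was 1.898. The part of the libraries' GC trend in the members' GC content and separation was not tested.

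**Figure D4:**
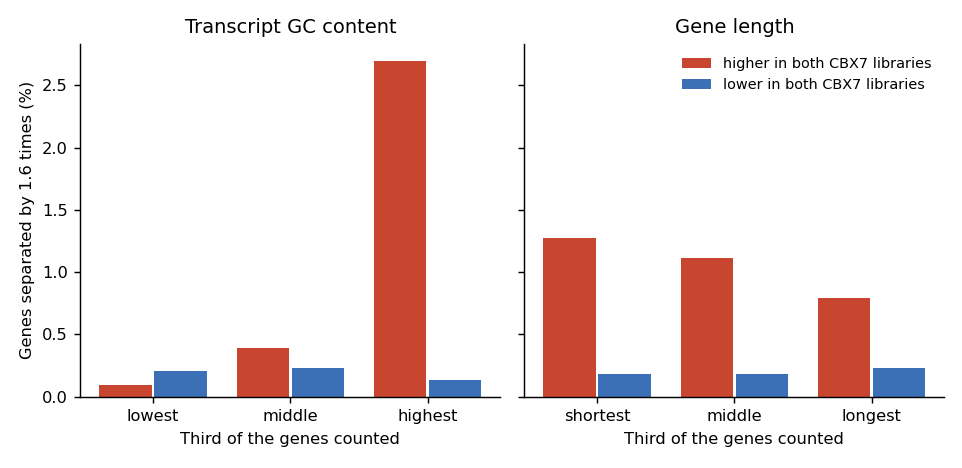
Share of counted genes (percent, linear axis from 0) that were higher (red) or lower (blue) in both CBX7 libraries by at least 1.6 times, in tertiles of transcript GC content (left) and of gene length (right). The red bar of the highest GC tertile stands at 2.70% against 0.0914% in the lowest, while the red bars fall from 1.27% to 0.795% from short to long genes and the blue bars stay between 0.137% and 0.228%.

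In length the difference changed direction with the libraries used. The deposited gene length had a median of 2558 bases in members (570 to 8290) and 2963 in all counted genes, and 59.1% of members against 50.7% of all were under 3000 bases. By tertile of length, 50 members were in the shortest, 44 in the middle and 33 in the longest, with shares passing the rule of 1.27%, 1.11% and 0.795%. Among genes passing without CBX7 library 1 it was 3092 bases, above that of all genes, and without CBX7 library 2 it was 1774 bases.

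The share of genes separated by 1.6 times was larger at low counts. The rule was passed by 3.50% of genes with 100 to 200 counts, 3.26% with 200 to 400, 2.33% with 400 to 1000, 0.578% with 1000 to 4000 and 0.0788% above. In the same bins the mirrored rule was passed by 1.17%, 0.634%, 0.299%, 0.0462% and 0%. The 2 members above 4000 counts were MDK and MCAM. With all 4 libraries, more genes were higher than lower in each bin. Over all counted genes the order turned round without CBX7 library 2, with 301 genes higher and 548 lower.

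The separation was also read within same-numbered libraries. The median log2 ratio of members was 1.27 for CBX7 library 1 over control library 1 and 1.22 for CBX7 library 2 over control library 2. The rule itself requires a ratio of at least 1.6 in both for every member. Of the 127 members, 91 (71.7%) were higher in CBX7 library 1 than in CBX7 library 2, against 44.6% of all counted genes, and 81 (63.8%) were higher in control library 1 than in control library 2, against 50.6%.

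**Figure D5:**
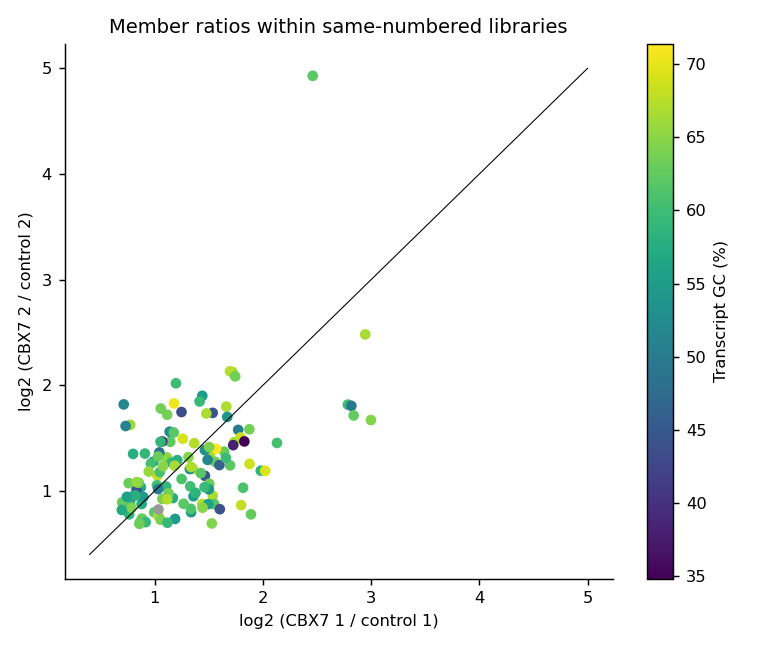
log2 ratio of CBX7 to control CPM in replicate 2 (vertical axis) against replicate 1 (horizontal axis) for the 124 members with counts in both control libraries, coloured by transcript GC content, with the line of equal ratios and AHRR, which has no GC value, in grey. All points lie above 0 on both axes, as the rule requires, and the medians over members were 1.27 in replicate 1 and 1.22 in replicate 2; the point near the top is LCN10, for which control library 2 held fewer than 3 counts.

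What bears on a Polycomb link was drawn from gene lists, promoter-proximal sequence and position. Of the listed Polycomb subunits other than CBX7, 31 had at least 100 counts and 0 were members. Their log2 fold changes ran from -0.23 for EZH1, a catalytic subunit of Polycomb repressive complex 2, to 0.43 for CBX2, a paralog of CBX7, with a median of 0.01. CBX2 was at 20.2 and 23.2 CPM in the controls and at 28.8 and 28.2 CPM with CBX7, a difference of less than 1.6 times with groups that did not overlap. None of the 31 had an adjusted p under 0.05 in edgeR's test or in DESeq2's, and 1 (3.23%) had an unadjusted p under 0.05 in edgeR's, where 4.74% of all tested genes did in either direction.

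Of homeobox, GATA, SOX, FOX, TBX and related regulators classically silenced by Polycomb, 55 of 165 listed had at least 100 counts, and GATA2 was the only member among them (1.82%, against 1.06% of all counted genes passing the rule). The 55 had a median log2 fold change of 0.14, from -0.31 for TBX3 to 0.99 for FOXQ1. In edgeR's test 0 of the 55 had an adjusted p under 0.05 and 5 (9.09%) an unadjusted p under 0.05, against 4.74% of all tested genes, and DESeq2's test called GATA2 alone, where it called 0.451% of all genes in either direction. Of the 109 regulators in the table with fewer than 100 counts, 4 were fitted, and 2 of these met the separation of 1.6 times and were kept from the set by their counts alone. They are named here after their values were seen. GATA3, a GATA factor of luminal urothelium that is, like the lower ELF3, on the list of urothelial markers, had 3 and 4 counts in the controls and 14 and 22 with CBX7, or 0.127 and 0.192 against 0.557 and 1 CPM, a log2 fold change of 2.28 (standard error 0.56). HOXA13, a homeobox factor of the distal limb and urogenital tract, had 5 and 6 counts in the controls and 16 and 15 with CBX7, a log2 fold change of 1.42 (standard error 0.45). At such counts both folds are loosely held. Both CBX7 libraries lay above both controls for 15 of the 55 (27.3%) and below them for 9 (16.4%), against 14.1% and 16% of all counted genes. The 5 with an unadjusted p under 0.05 were all higher, namely GATA2, FOXF2, FOXQ1, PAX5 and HOXA10, and apart from GATA2 their separations were 1.43, 1.46, 1.39 and 1.28. The 9 that were lower included TBX3, GATA6, PAX8, TFAP2A, SIM2, HOXD10, FOXL1 and ZIC2, at log2 fold changes of -0.31 to -0.09, with PAX8 at 329 and 330 against 257 and 276 CPM. The transcription factors NFATC1, SOX18, TCF7 and HR, which are members, were not on the list.

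The list of WNT, BMP, FGF and Hedgehog signals also holds the activin subunit gene INHBB, which is of none of these families by name. Of its 18 counted genes 3 were members (WNT7B, WNT10B and INHBB, 16.7%, where 1.06% of all counted genes passed the rule), though the median of the list was -0.09. Among 32 epithelial genes 2 were members (KRT19 and SPINT1, 6.25%, median 0.14, from -0.79 for EHF to 1.35 for KRT19), among 16 imprinted genes 1 (H19, 6.25%, median 0.09) and among 24 neuronal genes 1 (TUBB4A, 4.17%, median 0.09). Among 24 genes of the transport list 2 were members (SLC29A4 and SLC9A3R2, 8.33%, median 0.17), of which SLC9A3R2 is a scaffold and not a transporter. These shares stand beside the same 1.06%, and with 1 to 3 members a list nothing is read from them. No member came from 7 counted germline genes, 23 genes of actin and muscle-type cytoskeleton or 4 urothelial markers, whose medians were 0.12, 0.10 and 0.14. On each of these lists 0 genes had an adjusted p under 0.05 in edgeR's test. At an unadjusted p under 0.05 there were 5 signals, 7 epithelial, 3 imprinted, 3 neuronal, 6 transport, 1 germline, 1 cytoskeletal and 1 urothelial gene, all higher with CBX7 except ELF3, which was lower and is both the urothelial gene and 1 of the 7 epithelial genes. So were the 2 counted markers of fibroblasts, endothelium and leukocytes, COL1A1 being higher and CD68 lower. These counts are read against the 4.74% of all tested genes in either direction. The shares were 27.8% of signals, 21.9% of epithelial, 18.8% of imprinted, 12.5% of neuronal, 25% of transport, 14.3% of germline, 4.35% of cytoskeletal and 25% of urothelial genes, each of few genes and with members, which were chosen on this contrast, among the first 5. DESeq2's test called only members among these lists (WNT7B, INHBB, KRT19, SPINT1, H19, SLC29A4 and SLC9A3R2), against 0.451% of all genes. Most members belonged to no list.

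The first 300 transcribed bases of the longest transcript stood in for the promoter, a measure chosen after the promoter windows had proved too few. Their GC content had a median of 68.7% in members and 61.3% in all counted genes, and they held a median of 24 and 20 CpG. The ratio of observed to expected CpG was 0.699 in members and 0.733 in all. A composition of the CpG island type, here at least 55% GC and a ratio of at least 0.65, was met by 68 of 126 members (54.0%) and by 52.9% of all counted genes. The members were thus richer in GC at their 5′ ends, but the share with island-type 5′ ends was close to that of all genes, and below it, at 50%, among genes passing after the length and GC correction.

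In position, 18 members (14.2%) lay on chromosome 19 and 10 (7.87%) on chromosome 22, which hold 6.94% and 2.51% of the counted genes. Chromosomes 6 and 21 held none. Within 100 kb of each other lay 16 pairs made up of 30 members. Of these, 4 pairs overlapped (among them RAPGEF3 with SLC48A1, SEPTIN5 with GP1BB, and GATA2 with GATA2-AS1), so that their counts may share reads. The other pairs included FBXO2 with FBXO6, C1QL4 with DNAJC22, LYPD3 with PHLDB3, RHOV with SPINT1, WNT10B with DDN-AS1 and PROM2 with KCNIP3. Around the members, 468 other counted genes within 100 kb had a median log2 fold change of 0.12, against 0.00 for all counted genes. They include genes left out by name, such as ARHGEF16 and EGFL7. The part of the libraries' GC trend in this median and in the chromosome shares was not tested.

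Of 126 members with a GENCODE record, 117 were protein coding, 6 antisense, and 1 each of the classes TEC (a provisional class of that annotation), lincRNA and processed transcript. A count that was not whole was found for 37 members (29.1%), fewer than the 48.5% of all counted genes.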

How the data were processed

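Total RNA of T24 cells was extracted with TRIzol and sequenced in 2 control and 2 CBX7 libraries. The authors deposited expected counts per gene (88.2% to 88.9% of them whole within 0.001), TPM values per library with group means, a gene length in bases, and their own fold, log2 fold, p-value, adjusted p-value and significance columns, which were not used. The submitters' processing notes name hg19, cutadapt 1.9.1, HISAT2 2.0.1, HTSeq 0.6.1 and DESeq2 with no role; HTSeq writes whole counts by default, so the counter behind these columns is not given in the sources used here.

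CPM was taken from the counts as deposited. Low counts were removed with filterByExpr, and the rounded counts were then scaled by TMM and tested in edgeR 4.0.16 (quasi-likelihood, condition only, Benjamini-Hochberg over all genes, threshold 0.05) in R 4.3.3, and with DESeq2 1.42.0 as an alternative. The code was tested on simulated data. Length and GC trends were fitted per library by loess (span 0.5). Of 60623 genes, 58516 matched GENCODE release 29 (GRCh38), which gave positions, types and GC, while promoters came from RefSeq on GRCh38.p14. The members, gene lists and tests were chosen with earlier results of these data known, and function groups were assigned after the members were seen. Values in all libraries are given for the 30 widest separations, the 15 highest mean TPM values and members on a list, except genes that are not reported here. Other genes with values serve to fill out their group and were picked after their values were seen. With 2 libraries a group, p-values measure only the spread between these samples.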

Additional observations from a re-analysis of the deposited data

How the results depend on the processing

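The rule gave 134 genes with TMM scaling, 130 with DESeq2's size factors and 111 with the deposited TPM, of which 127, 124 and 88 were members of the 127. The mirrored rule gave 22, 25 and 47 genes in the same order, and 46 to 548 when each library was left out in turn. The rule itself gave 58 genes at a summed count of at least 400, 56 at a separation of 2 times, 221 at 1.4 times, and 155 to 301 when each library was left out in turn. In an alternative chosen after seeing the data, 194 genes passed without replicate 1 of both groups and 347 without replicate 2, with no error to set beside 1 library a group.

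Over all genes edgeR called 3, and 265 with no filter on low counts, 5 with length and GC offsets, 67 with DESeq2's Wald test and 45 to 5491 when each library was left out. Among members it called 0, and 106 with no filter, 45 with DESeq2's test and 13 to 122 when each library was left out. Both groups carry the same replicate numbers, but no source says that they mark a batch. Same-numbered libraries deviated together, with a correlation of 0.44 across the genes tested, which are not independent replicates, and 2 pairs do not establish a pairing. Fitted with the replicate block, edgeR called 361 genes, 109 of them members, and with the block and the length and GC offsets 391, 101 of them members. The cause of these shifts was not tested.

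The median length of the genes passing was 2809 bases at a separation of 2 times and 1774 to 3092 when each library was left out, under the 2963 of all counted genes in the main set but above it without CBX7 library 1. The share with island-type 5′ ends was 54.0% in the members, above the 52.9% of all counted genes, but 50% after the length and GC correction and 51.3% to 55.5% when each library was left out, on either side of it. Median fold changes of members lay between 1.13 and 1.41 on the log2 scale in every fit. The members were chosen on these same libraries, so this range describes the choice. The median member had 375 counts, with 2 libraries a group. In the main fit 0 of 126 members had an adjusted p under 0.05, and all 126 had an unadjusted p under 0.05. As the members were chosen on this contrast, nothing is read from either count.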
